A study of Homo sapiens with 6 samples.

Results

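The HOX genes lie in 4 clusters, and their chromatin was examined by ATAC-seq, in which a transposase inserts sequencing adapters into open DNA so that the read count of a region rises with its accessibility. The regions described here are all those of the deposited count table that overlap 1 of 38 listed HOX genes or lie within 5 kb of one, with gene positions from GENCODE on the human genome build hg38. This gave 174 regions of 171517, of which 40 belong to the HOXA cluster on chromosome 7, 48 to HOXB on chromosome 17, 36 to HOXC on chromosome 12 and 50 to HOXD on chromosome 2. A region within reach of several genes (88 of 174) was counted once and given to the gene with the nearest start of its canonical transcript, so the gene that heads a region is a position and not a target.

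The cells were naive embryonic stem (nES) cells of the established line H9, cultured in tt2iLGö medium, which holds kinase inhibitors and human LIF and keeps cells in a state like that of the pre-implantation epiblast. All 6 libraries came from cells separated from their mouse feeder layer and plated on laminin. In 3 libraries the medium held 4 mM dm-αKG, a cell-permeable form of α-ketoglutarate, for 24 h, and in the 3 control libraries it held none. The labels name DMSO for the controls, whereas the protocol and the methods of the study give 0 mM dm-αKG. The study names the replicates biological and the experiment was done once, so the p-values measure the spread between these libraries.

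HOX genes encode homeodomain transcription factors that give cells their position along the head-to-tail axis, and their order along each chromosome follows the order in which they are used. Paralogue numbers run from the anterior genes (1 to 4) over the central genes (5 to 8) to the posterior genes (9 to 13). In pluripotent cells the clusters are largely silent, rich in CpG dinucleotides and covered by Polycomb repression. α-Ketoglutarate is a cosubstrate of many enzymes that remove methyl groups from DNA and from histones, including the histone mark laid down by Polycomb. In nES cells given dm-αKG, the study found the global level of this mark unchanged and left a local loss possible. The study also compared dm-αKG with an inhibitor of the Polycomb enzyme complex and saw distinct phenotypes. It judged a change of this mark unlikely as the main mechanism. It found lower acetylation at many histone peptides.

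The sequences below are shown because their regions had the smallest adjusted p among HOX regions whose central 200 bp lie outside annotated untranslated regions (UTRs). They are the central 200 bases on the forward strand of hg38, with CpG dinucleotides in capitals. Here and below, outside genes means outside the 38 listed HOX genes. They show how unlike the changed regions are, with 27 CpGs in the HOXB2 region, 6 in the HOXC11 region and 5 in each of the others.
HOXB2, coding exon, higher in dm-αKG, chr17:48543302-48543501: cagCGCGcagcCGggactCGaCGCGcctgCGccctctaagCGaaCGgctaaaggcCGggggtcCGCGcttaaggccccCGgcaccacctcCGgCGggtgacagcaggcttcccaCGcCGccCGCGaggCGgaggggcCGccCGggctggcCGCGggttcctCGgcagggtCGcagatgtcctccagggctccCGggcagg
HOXC5, intron of HOXC4, higher, chr12:54039693-54039892: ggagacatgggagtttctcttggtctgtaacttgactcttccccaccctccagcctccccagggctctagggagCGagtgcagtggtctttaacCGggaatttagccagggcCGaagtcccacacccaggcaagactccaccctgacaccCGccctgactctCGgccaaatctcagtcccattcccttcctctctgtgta
HOXC11, outside genes, lower, chr12:53979030-53979229: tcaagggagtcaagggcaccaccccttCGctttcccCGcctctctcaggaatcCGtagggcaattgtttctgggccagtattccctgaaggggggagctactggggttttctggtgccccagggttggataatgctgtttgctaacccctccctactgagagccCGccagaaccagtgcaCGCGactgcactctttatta
HOXD12, outside genes, lower, chr2:176097267-176097466: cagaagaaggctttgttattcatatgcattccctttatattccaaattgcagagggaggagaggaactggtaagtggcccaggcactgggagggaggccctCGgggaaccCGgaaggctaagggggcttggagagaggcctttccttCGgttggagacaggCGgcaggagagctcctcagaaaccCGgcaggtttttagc

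Counts in regions per library lay between 13025674 and 26828622, with single HOX regions holding between 9 and 594 reads in a library. At the promoters, markers of naive cells were open in control, with a normalized count of 404 at KLF17 and 746 at SUSD2, although DPPA3 had no region within 1 kb of its start. Markers of trophoblast had lower counts, with 99.9 at GATA2, 49.4 at GATA3 and 56.8 at KRT7, and VGLL1 had no region there. Normalized counts are counts scaled to a common library size with edgeR's TMM factors.

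The HOX clusters were accessible at many sites in control cells. The median HOX region had a normalized count of 69.8 in control, against 65.3 over all regions and 108 over all regions within 1 kb of a protein-coding start. Their central 200 bp held a median of 65.5% GC and 17 CpGs, against 55.5% and 5 over all regions. Of the 174 regions, 49 lay in a coding exon, 14 in a UTR, 62 in an intron, 13 in an exon of another transcript and 36 outside genes. These places refer to the 38 listed HOX genes only. Some regions outside them lie at starts of other genes, such as that of the non-coding RNA HOTAIRM1. HOXD was the most densely covered, with 4.87 regions per 10 kb, followed by HOXB with 3.72, HOXA with 3.65 and HOXC with 2.93. The longest stretches without a region measured 15773 bp between HOXA11 and HOXA13, 11758 bp between HOXB1 and HOXB2, 9948 bp between HOXC13 and HOXC12, and 7667 bp between HOXD4 and HOXD3.

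To find out whether dm-αKG changed the accessibility of the clusters, each region was tested in a fit over the whole table. Of the 174 HOX regions, 3 were called at an adjusted p below 0.01 and a change of more than 2-fold. Of these, 1 was less accessible in dm-αKG, while 1.96% of all regions were called less accessible, and 2 were more accessible, while 0.782% of all regions were. At an adjusted p below 0.05 with no fold threshold, 8 HOX regions (4.60%) were lower, against 10.5% of all regions, and 16 (9.20%) were higher, against 7.43%. Over regions within 1 kb of a protein-coding start the shares were 2.56% lower and 11.1% higher, so both comparisons turn with the background chosen. The other 150 did not pass. Of the 63 HOX regions within 1 kb of their own start, 1.59% were lower and 7.94% higher. Of the 111 HOX regions farther away, 6.31% were lower and 9.91% higher. All regions farther than 1 kb from a protein-coding start had 12.8% lower and 6.39% higher. These differences were not tested. All dm-αKG libraries lay below all controls in 12 HOX regions (6.90%, against 16.9% of all regions) and above them in 33 (19.0%, against 15.5%). Among all regions within 1 kb of a protein-coding start, these shares were 6.31% and 22.8%. The counts depended on the tool and the libraries. DESeq2 gave 5 lower and 5 higher. Without control 1 or control 2, 7 regions were higher at the second threshold. Without dm-αKG 1 it was 8 higher and 4 lower, without dm-αKG 2 it was 9 higher, and without control 2 it was 5 lower.

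The median log2 fold change of the HOX regions was 0.15, against 0.01 over all regions and 0.11 over all regions within 1 kb of a protein-coding start. Above 0 were 119 of the 174 HOX regions, 87873 of all 171517 regions and 26342 of the 38067 near a protein-coding start. The HOX regions took 0.0790 to 0.0805% of the counts in the control libraries and 0.0838 to 0.0888% in the dm-αKG libraries, so the treatments did not overlap in this share.

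**Figure D1:**
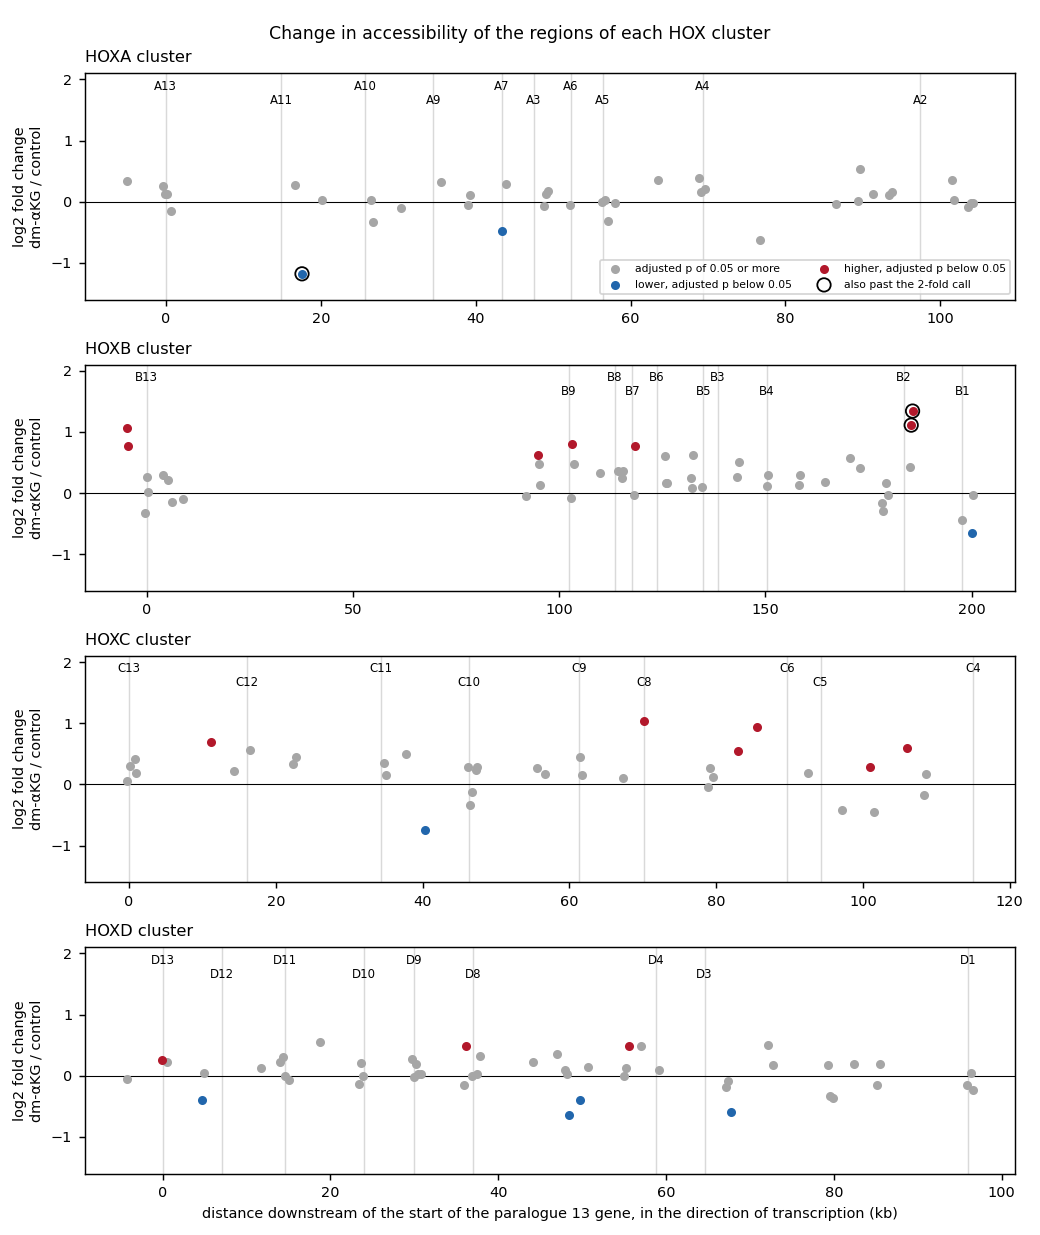
Each point is 1 of the 174 HOX regions, placed by its distance in kb downstream of the start of the paralogue 13 gene of its cluster (x axis) and its log2 fold change in dm-αKG over control (y axis). Thin vertical lines mark the canonical start of each gene, named by cluster letter and number. The 8 lower regions are spread over all 4 clusters, the 16 higher regions lie in HOXB, HOXC and HOXD, and the 3 ringed points are the called regions.

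GC content moved with the change over all regions, where the median log2 fold change was -0.08 up to 50% GC and 0.12 above 70% GC. Among HOX regions it was 0.16 in the 6 regions up to 50% GC, with 1 higher and 0 lower, -0.01 in the 34 regions above 50 and up to 60% GC, where 5 of the 8 lower regions lay, 0.18 in the 46 regions above 60 and up to 65%, 0.19 in the 43 regions above 65 and up to 70%, and 0.15 in the 45 regions above 70%. The last value is close to the 0.12 of all regions of that composition. Of all regions, 5.76% were higher and 15.7% lower up to 50% GC, and 12.1% were lower above 50 and up to 60% GC. When the fit was given offsets for GC content, an alternative chosen after seeing the data, the median HOX change was 0.10. In that fit 9 of the 174 HOX regions were higher and 7 lower. Over all 171517 regions its median was 0.01, with 12716 higher and 16346 lower. Over the 38067 regions within 1 kb of a protein-coding start it was 0.05, with 2789 higher and 1637 lower. Of the 16 HOX regions that passed with the offsets, 15 had passed without them. The part of base composition in the changes was not tested further.

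**Figure D2:**
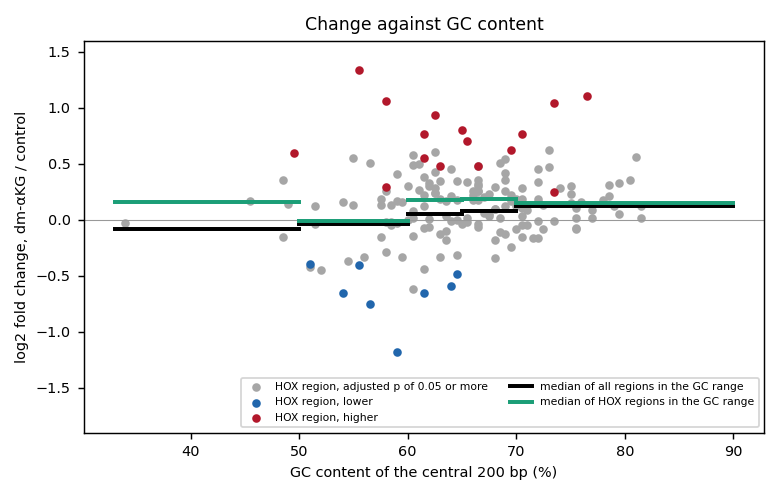
Each point is 1 HOX region, with the GC content of its central 200 bp in percent (x axis) and its log2 fold change in dm-αKG over control (y axis). The black bars, medians of all regions in each GC range, rise from -0.08 to 0.12, and the green bars, medians of the HOX regions, lie above them, most narrowly above 50 and up to 60% and above 70% GC.

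The summed signal of a cluster describes it as a whole. Summed normalized counts of HOXC were 3015, 3088 and 3108 in control and 3575, 3485 and 3492 in dm-αKG, a log2 ratio of 0.20. The treatments did not overlap, and the gap between them exceeded the SD of either (49.1 and 49.8). HOXB summed to 3760, 3656 and 3612 in control and 4332, 4040 and 3687 in dm-αKG. Its log2 ratio of 0.13 rested on dm-αKG 1, without which it was 0.07, and the third dm-αKG library lay within the range of the controls.

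HOXA summed to 4128, 4043 and 4007 in control and to 4323, 4147 and 4128 in dm-αKG, a log2 ratio of 0.05, with control 1 and dm-αKG 3 at the same value. HOXD summed to 4846, 4649 and 5076 in control and to 4856, 5054 and 5032 in dm-αKG, a log2 ratio of 0.04 within the spread of the controls. The smallest p that an exact permutation test of 3 libraries per treatment allows is 0.10, and no test of the sums or of differences between clusters was made.

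**Figure D3:**
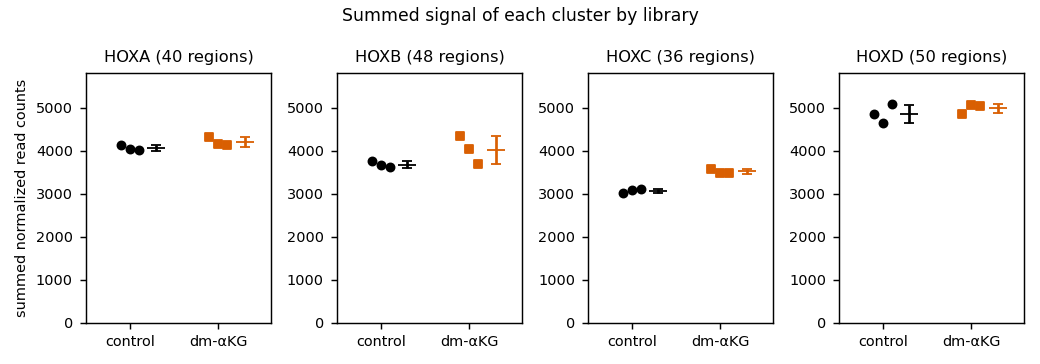
Summed normalized read counts (y axis, from 0) of the regions of each cluster in the 3 control and 3 dm-αKG libraries (points), with the mean and SD beside them. The HOXC sums lie between 3015 and 3108 in control and between 3485 and 3575 in dm-αKG, while the treatments overlap or touch in the other clusters.

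The medians of single regions had the same order as these sums in that HOXB (0.24) and HOXC (0.25) stood above HOXD (0.05) and HOXA (0.03). With GC offsets they were 0.20, 0.18, -0.03 and -0.01. At the second threshold HOXA had 2 lower (5.00%) and 0 higher regions, HOXB 1 (2.08%) and 7 (14.6%), HOXC 1 (2.78%) and 6 (16.7%), and HOXD 4 (8.0%) and 3 (6.00%). Over all regions the shares were 10.5% lower and 7.43% higher, and over those within 1 kb of a protein-coding start 2.56% and 11.1%. All higher HOXB regions except an intron region of HOXB7 were in the authors' peak list of dm-αKG only. They were thus included through the treatment in which their counts were higher, as were some of the higher HOXC regions. With GC offsets, HOXA again had 2 and 0, HOXB 1 and 4, HOXC 1 and 4, and HOXD 3 and 1. By paralogue number, the 65 anterior regions had a median log2 fold change of 0.12 with 4 lower and 4 higher (6.15% each), the 43 central regions 0.17 with 1 lower (2.33%) and 7 higher (16.3%), and the 66 posterior regions 0.19 with 3 lower (4.55%) and 5 higher (7.58%). These differences between groups of regions were not tested.

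The strongest change lay in HOXB2, an anterior gene used in the hindbrain (ENSG00000173917, chr17:48540894-48545109, reverse strand). A region of its coding exon, chr17:48543204-48543599, had normalized counts of 38.5, 37.8 and 57.1 in control and 90.4, 115 and 76.3 in dm-αKG. All treated libraries stood above all controls. The log2 fold change was 1.11 ± 0.21 (SE) with an adjusted p of 2.68e-05. This is the region printed above with 27 CpGs, and its GC content was 76.5%. With GC offsets the change was 0.99 (adjusted p = 0.000175), and without dm-αKG 2 it was 0.95 (adjusted p = 0.00248), in both cases just under the fold threshold.

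A second HOXB2 region lies next to it at chr17:48542965-48543164 and reaches from the coding exon into the UTR. Its normalized counts were 13.4, 9.04 and 13.4 in control and 30.8, 32.1 and 26.9 in dm-αKG, again with no overlap. The change was 1.34 ± 0.36 (SE, adjusted p = 0.00486), at a low level, since the libraries control 1 and control 3 held 15 and 11 reads there. It lost the call with DESeq2 (adjusted p = 0.0224) and without control 1 (0.0135), control 2 (0.0432), dm-αKG 1 (0.0304) or dm-αKG 2 (0.0198). Both regions were peaks of the dm-αKG list only, and both lie near annotated starts of HOXB-AS1, a non-coding RNA read from the other strand. ATAC-seq does not tell the strands apart. The third region at these starts, chr17:48543651-48543850, had a mean of 51.1 in control and 67.2 in dm-αKG (log2 fold change 0.43, adjusted p = 0.158). HOXB2 had no region within 1 kb of its own canonical start.

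HOXB1, the most anterior gene of the cluster and a direct target of retinoic acid in the hindbrain, moved the other way. A region in its 3′ UTR, chr17:48528643-48528851, had normalized counts of 226, 224 and 166 in control and 152, 133 and 100 in dm-αKG. All treated libraries lay below all controls, and the region fell by 0.65 on the log2 scale (adjusted p = 0.000169). The HOXB1 promoter region held 76.9, 78.9 and 71.7 in control and 52.3, 78.3 and 37.4 in dm-αKG, which overlap (log2 fold change -0.44, adjusted p = 0.133). When 1 library was left out, its change ran from -0.27 without dm-αKG 3 (adjusted p = 0.404) to -0.71 without dm-αKG 2 (adjusted p = 0.0302).

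In the HOXA cluster the called region lay in the 3′ UTR of HOXA11, a posterior gene that patterns the forearm and the uterus (ENSG00000005073, chr7:27181157-27185232, reverse strand). Its normalized counts at chr7:27182416-27182615 were 58.1, 60.0 and 38.9 in control and 22.9, 23.1 and 23.9 in dm-αKG. The treated libraries lay close together and below every control, with a log2 fold change of -1.18 ± 0.27 (SE, adjusted p = 0.000719) and -1.18 with GC offsets. Without control 1 the adjusted p was 0.0108 and without control 2 it was 0.0145, just past the threshold of 0.01. The region was a peak of the control list only.

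This HOXA11 region is 1 of 6 HOX regions (3.45%) whose central 200 bp hold a match, with at most 1 mismatch on either strand, to the consensus of CTCF, the protein that anchors chromatin loops, against 7.45% of all regions. The match is shown because it lies in the called region. It is in capitals within the 30 bases chr7:27182429-27182458 of the forward strand.
HOXA11, 3′ UTR, lower: gtaggctcCCAGTAGAGGGAGGgtgtggtg
The region at HOXA9 with a match that has 0 mismatches, given for comparison, did not pass the test (means of 116 and 110, log2 fold change -0.06, adjusted p = 0.824). Nor did the other 4 matches, at HOXA11, HOXB3, HOXB8 and HOXC11, whose log2 fold changes lay between -0.16 and 0.33. The AP-1 motif TGANTCA was held by few HOX regions (4, 2.30%, against 6.33% of all) and the OCT motif ATGCAAAT by fewer (1, 0.575%, against 2.28%). The motif TGATTNAT, bound by HOX proteins with PBX, was in 2 regions (1.15%, against 1.23%). All were searched on both strands, and a match is a run of letters and not a site shown to be bound.

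The other HOXA region that passed was the promoter of HOXA7, a central gene. It held 122, 158 and 157 in control and 99.7, 96.2 and 118 in dm-αKG, with all treated libraries below the controls, and fell by 0.48 on the log2 scale (adjusted p = 0.0170). It missed the threshold with DESeq2 (adjusted p = 0.0667) and without control 2, control 3, dm-αKG 1 or dm-αKG 2 (0.0728 to 0.118).

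In HOXC, 6 regions rose and 1 fell. The strongest of them in adjusted p was the falling one, outside genes and 6004 bp downstream of the start of HOXC11, a posterior gene. It held 91.2, 114 and 101 in control and 61.7, 74.4 and 44.9 in dm-αKG, without overlap, and fell by 0.75 on the log2 scale (adjusted p = 0.00205). It was a peak of the control list only, and its sequence is printed above. The start regions of HOTAIR, a non-coding RNA of this interval, are among the regions given to HOXC11 and did not pass (log2 fold changes 0.35 and 0.16, adjusted p = 0.265 and 0.672).

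The most accessible rising region was that given to HOXC5, inside an intron of HOXC4 and printed above. It held 360, 353 and 332 in control and 414, 444 and 431 in dm-αKG, which do not overlap, a log2 fold change of 0.29 ± 0.09 (SE, adjusted p = 0.00985). Without dm-αKG 2 the adjusted p was 0.0542. The promoter of HOXC8, a central gene active in the trunk, held 14.3, 20.6 and 24.3 in control and 36.6, 34.6 and 50.9 in dm-αKG. This was the least accessible HOX promoter region in control and the one that rose most, by a log2 fold change of 1.04 ± 0.31 (SE). Its adjusted p of 0.0111 left it outside the stricter call. It was a peak of the dm-αKG list only, so it was included through the treatment in which its count was higher. Without control 1 the adjusted p was 0.0852, and without dm-αKG 3 it was 0.0567.

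A region in an intron of HOXC4 held 67.1, 69.9 and 53.4 in control and 91.1, 100 and 103 in dm-αKG, a log2 fold change of 0.60 (adjusted p = 0.0137, and 0.0736 without control 3). The remaining HOXC regions that rose were 2 upstream of the HOXC6 start (log2 fold changes 0.94 and 0.55) and 1 upstream of HOXC12 (0.70). With DESeq2 none of these 3 passed (adjusted p = 0.0963, 0.112 and 0.146), and with GC offsets the last 2 did not (0.0505 and 0.0528). At the HOXC6 region with 0.94 the treatments overlapped, with 16.1, 18.1 and 24.3 in control and 40.9, 43.6 and 23.9 in dm-αKG. At HOXC12 they also overlapped, since dm-αKG 3 held 31.4 against 35.2 to 37.6 in control.

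**Figure D4:**
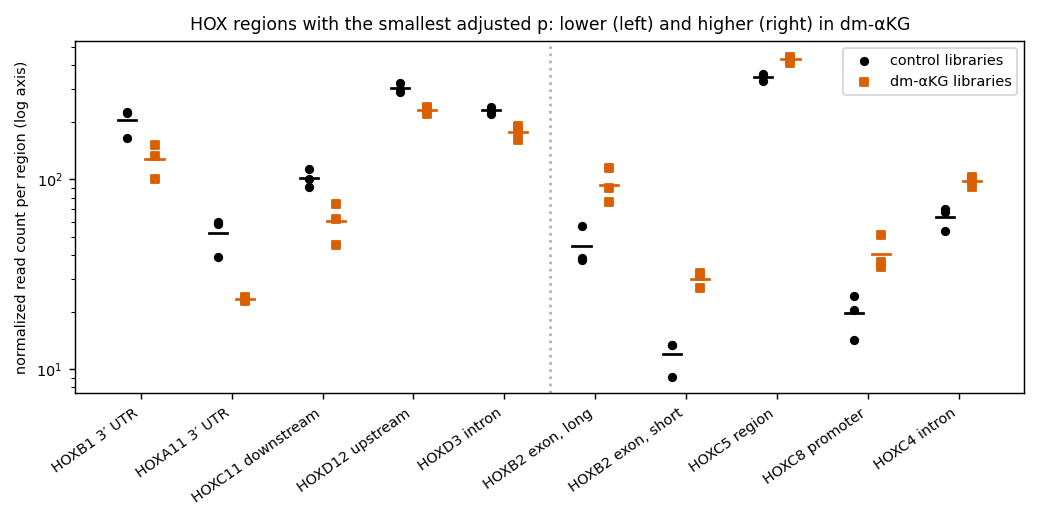
Normalized read counts (log axis) of the 5 lower and 5 higher HOX regions with the smallest adjusted p, by library, with bars at the means. In all 10 the control libraries (circles) and the dm-αKG libraries (squares) do not overlap. The regions were picked by adjusted p from these same counts, so this separation is not a separate result. The levels range from 9.04 at the shorter HOXB2 region to 444 at the HOXC5 region.

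HOXD held the most accessible of the 8 lower regions. It lies outside genes, 2428 bp upstream of HOXD12, a posterior gene that patterns digits, and its sequence is printed above. It held 299, 321 and 290 in control and 222, 242 and 234 in dm-αKG, with all treated libraries below the controls, and fell by 0.40 on the log2 scale (adjusted p = 0.00307). The neighbouring region at chr2:176097602-176097807, the most accessible of the cluster in control, held 323, 371 and 326 in control and 323, 367 and 380 in dm-αKG. Its log2 fold change was 0.05 (adjusted p = 0.746), and the difference between these adjacent regions was not tested.

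HOXD3, an anterior gene, had 3 lower regions among its 17. The one with the smallest adjusted p held 221, 231 and 242 in control and 162, 180 and 192 in dm-αKG, without overlap, and fell by 0.39 on the log2 scale (adjusted p = 0.0115). Without dm-αKG 1 its adjusted p was 0.123. The others fell by 0.59 and 0.65 on the log2 scale (adjusted p = 0.0301 and 0.0440). In the latter, dm-αKG 3 with 56.9 lay just below the lowest control with 59.5, and dm-αKG 1 with 27.2 lay farthest from it. In the opposite direction, a region upstream of the HOXD4 start held 76.0, 88.8 and 65.6 in control and 105, 92.4 and 130 in dm-αKG (log2 fold change 0.48, adjusted p = 0.0432). It did not pass with DESeq2 (0.118) or GC offsets (0.0691). The HOXD3 regions that fell by 0.59 and 0.65 did not pass with DESeq2 either (0.102 and 0.158), nor did the latter with GC offsets (0.0665).

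The other rises of the HOXB cluster lay at HOXB13, HOXB7 and HOXB9. The regions upstream of HOXB13, a posterior gene of the prostate and hindgut that lies apart from the rest of the cluster, had log2 fold changes of 0.77 (adjusted p = 0.0192) and 1.06 (adjusted p = 0.0486). The second of these was thinly covered, with 8.05, 11.5 and 14.6 in control and 28.0, 18.0 and 22.5 in dm-αKG. An intron region of HOXB7 (0.77), an intron region of HOXB9 (0.80) and a region outside genes, upstream of HOXB9 and within 5 kb of the longest HOXB7 transcript (0.62), had adjusted p-values between 0.0370 and 0.0418 and treatments that did not overlap. None of these 5 regions passed with DESeq2. All of them except the HOXB7 intron region were peaks of the dm-αKG list only, so they were included through the treatment in which their counts were higher.

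Of the 38 genes, 27 had a region within 1 kb of the canonical start, and the most accessible such region was taken as the promoter region. The 11 without one were HOXA2, HOXA3, HOXA11, HOXB2, HOXB3, HOXB6, HOXC4, HOXC5, HOXC6, HOXD3 and HOXD12. Promoter levels in control ran from 19.7 at HOXC8 to 395 at HOXB9. The order at the top was HOXB9 (395 ± 21.3, SD, n = 3), HOXC13 (354 ± 7.36), HOXD13 (287 ± 4.86), HOXD1 (258 ± 27.6), HOXA13 (228 ± 4.90) and HOXA4 (209 ± 28.3). The control libraries of HOXD1 (242 to 290) overlapped with those of HOXD13 (284 to 293), and those of HOXA4 (179 to 234) with those of HOXA13 (223 to 232). In each of the 4 clusters the most accessible promoter region in control belonged to a posterior gene.

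In dm-αKG, 3 of the 27 promoter regions rose, 1 fell and 23 did not pass. The shares of 11.1% higher and 3.70% lower are near those over all regions within 1 kb of a protein-coding start, 11.1% and 2.56%. The median log2 fold change was 0.10, and -0.01 with GC offsets. HOXB4 (0.30), HOXB5 (0.10), HOXC9 (0.16), HOXC10 (0.28) and HOXA10 (-0.34) were among those that did not pass, as were HOXA5, HOXA6, HOXD9, HOXD10 and HOXD11, with log2 fold changes between -0.05 and 0.00. Besides HOXC8 and HOXA7, the promoters that passed were those of HOXD8, a central gene, and HOXD13, the last gene of its cluster, which patterns digits and genital buds. HOXD8 held 95.7, 87.1 and 118 in control and 128, 165 and 124 in dm-αKG, a log2 fold change of 0.48 (adjusted p = 0.0212). HOXD13 held 285, 284 and 293 in control and 336, 340 and 352 in dm-αKG, a small change of 0.25 (adjusted p = 0.0481) with tight replicates. With GC offsets HOXD13 was at 0.15 (adjusted p = 0.289) and HOXD8 at 0.41 (adjusted p = 0.0509), so neither passed. HOXD13 also missed the threshold whenever any 1 library was left out (0.0747 to 0.117), and HOXD8 did so without control 1, control 2 or dm-αKG 2 (0.0783 to 0.192).

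**Figure D5:**
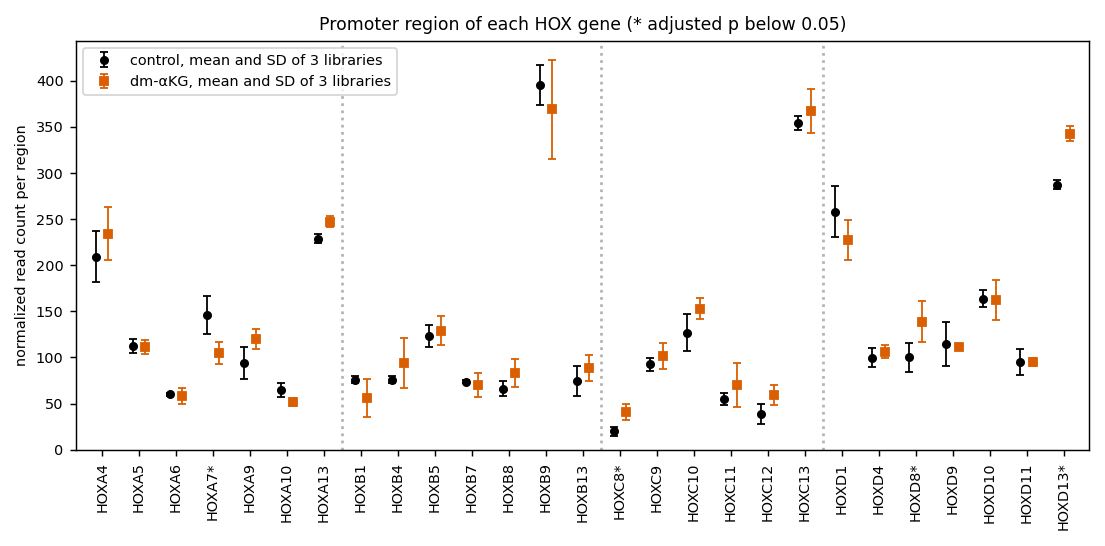
Normalized read counts (y axis, from 0) at the promoter region of the 27 HOX genes that have one, as the mean and SD of 3 control and 3 dm-αKG libraries, ordered by cluster and paralogue number. Stars mark the 4 genes that passed an adjusted p below 0.05. HOXB9 and HOXC13 stand highest, at 395 and 354 in control, and HOXC8 lowest at 19.7.

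The most accessible promoter regions in control, those of HOXB9 and HOXC13, did not pass. HOXB9 held 417, 395 and 374 in control and 426, 363 and 319 in dm-αKG (log2 fold change -0.08, adjusted p = 0.595), and HOXC13 held 350, 363 and 350 against 387, 375 and 341 (0.06, adjusted p = 0.682). HOXA13 lay above the controls in every treated library, with 232, 223 and 231 against 254, 246 and 242, yet did not pass (0.12, adjusted p = 0.470) and was at -0.02 with GC offsets. HOXC12 (0.56, adjusted p = 0.0905) had the largest change among promoters that did not pass. In the window of HOXA2 the most accessible region of the HOXA cluster, at a start of the non-coding RNA HOTAIRM1, held 275, 263 and 236 in control and 256, 278 and 231 in dm-αKG (log2 fold change -0.02, adjusted p = 0.925).

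The peak lists, called by the authors once for each treatment on all 3 replicates, held summits in both lists for 118 HOX regions (67.8%), in the control list only for 27 (15.5%) and in the dm-αKG list only for 29 (16.7%). Over all regions these shares were 71.4%, 15.4% and 13.2%. The 29 regions of the dm-αKG list only were weak in control, with a median normalized count of 38.5, and 9 of them rose (31.0%) and 0 fell, against 16.8% and 0.411% of all regions of that list only. Of the 27 regions of the control list only, 2 fell (7.41%) and 0 rose, against 20.3% and 0.709%. No test of these differences was made. Regions in HOXB made up 13 of the 29, and regions in HOXA made up 11 of the 27. The lists and the counts come from the same reads, so they are not separate measurements. A region of 1 list only was included through that treatment alone, and this choice favours a lower count in the other treatment. Such regions make up 9 of the 16 higher and 2 of the 8 lower HOX regions.

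HOX proteins bind DNA with PBX, MEIS and PKNOX partners, and the clusters are switched on by CDX factors and retinoic acid. Of 18 genes, these families with EVX1, EVX2 and CYP26A1, 16 had a promoter region. Of the 16, 1 was higher and 1 lower (6.25% each), against 11.1% and 2.56% of all regions within 1 kb of a protein-coding start. The region at CDX1, which encodes a CDX factor, held 76.0, 74.8 and 93.5 in control and 132, 113 and 118 in dm-αKG, with no overlap. It rose by a log2 fold change of 0.60 (adjusted p = 0.00595), and by 0.48 with GC offsets (adjusted p = 0.0292). The region at RARB, a retinoic acid receptor, held 292, 308 and 311 in control and 200, 222 and 311 in dm-αKG, so that the treatments overlap, and fell by 0.35 on the log2 scale (adjusted p = 0.0150). RARB did not pass with GC offsets (adjusted p = 0.0658), with DESeq2 (0.110) or without control 2, control 3 or dm-αKG 2 (0.0509 to 0.0829). Without dm-αKG 1, neither CDX1 (adjusted p = 0.0695) nor RARB (0.308) passed. The other 14, among them MEIS1, MEIS2, CDX2, RARA and CYP26A1, did not pass, with log2 fold changes of -0.10 at MEIS1 and 0.11 at CDX2.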

How the data were processed

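ATAC-seq libraries of H9 nES cells were analysed, 3 control and 3 dm-αKG, grouped by the treatment in the labels. The authors ran the ENCODE pipeline once per treatment (hg38, Bowtie2, MACS2), cut reproducible peaks to 200 bp around the summit, merged both lists with bedtools 2.28.0 and deposited raw counts of reads per region. They also deposited the peak lists, each peak with a score, a ratio of signal to background (fold enrichment) and −log10 p and q-values. Of these lists only the peak positions support results.

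Counts of all 171517 regions were fitted in R 4.3.3 with edgeR 4.0.16 (TMM scaling, quasi-likelihood F test, treatment as the only term), and p-values were adjusted by Benjamini-Hochberg over all regions. Calls needed an adjusted p below 0.01 with a log2 fold change above 1 in size, and the second threshold was an adjusted p below 0.05. Each SE is the size of the log2 fold change over the root of its F statistic. Alternatives were DESeq2 1.42.0, limma 3.58.1 (voom), other scalings, a minimum of 10 counts in every library, other windows, GC offsets, a replicate block and leaving out each library. Same-numbered libraries were not treated as pairs (correlations of their deviations -0.016, 0.001 and 0.017). The labels and the study do not state whether they were handled together, and these values cannot decide it. Replicate pairs differed by more than sampling noise (chi-square per degree of freedom 1.80 to 2.16). Fits were tested on simulated data.

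Genes and starts came from GENCODE 44. Members and lists were chosen with earlier results of these data known. The text names every HOX gene, all called regions, the 5 regions per direction with the smallest adjusted p below 0.05, the most accessible region of each cluster and the cofactor promoters that passed. The promoter region of 1 cofactor gene is counted but not reported here. The other regions at an adjusted p below 0.05 and the non-coding RNA starts were added after their values were seen.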

Additional observations from a re-analysis of the deposited data

How the results depend on the processing

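The count of called less accessible HOX regions was 1, and 4 without a fold threshold. Without 1 library it was 0 to 1. The count of called more accessible regions was 2, with 1 under DESeq2, 1 with GC offsets and 4 at an adjusted p below 0.05 with the fold threshold. Without 1 library it was 0 to 3. At an adjusted p below 0.05, 8 were lower (5 with DESeq2, 4 to 7 without 1 library) and 16 higher (5 with DESeq2, 9 with GC offsets, 7 to 12 without 1 library). The replicate block gave 1 less accessible, 2 more accessible, 8 lower and 13 higher regions, although a pairing of the libraries by number is not stated. The HOXC sum had a log2 ratio of 0.23 over regions overlapping a gene only. Of the cofactor promoters 2 passed, 1 with DESeq2, 1 with GC offsets, and 0 to 2 without 1 library. The median HOX change stayed between 0.10 and 0.17 in all alternatives run.

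Of 559 alternative values of single regions, 504 kept direction and side of the threshold, 24 fell short of it, 1 passed it and 30, over 14 results, changed sign, none past the threshold. With GC offsets the promoters of HOXA13, HOXC13 and HOXD4 came to -0.02, -0.01 and -0.03, and the HOXD12 region at 176097602 to -0.02. HOXA5 came to 0.01 with voom, 0.00 with RLE, 0.02 with upper quartile and 0.02 with total counts, HOXD9 to 0.02 with voom, HOXD10 to 0.00 and 0.01, and HOXD11 to 0.00 and 0.00, with upper quartile and total counts, and HOXD11 to 0.00 with the replicate block. HOXA10 came to 0.02 at its other start. Without 1 library, values ran from -0.08 to 0.03 at the HOXA2 region 27096028, -0.05 to 0.05 at HOXA5, -0.16 to 0.02 at HOXA6, -0.03 to 0.15 at HOXB5, -0.20 to 0.07 at HOXB7, -0.21 to 0.01 at HOXB9, -0.17 to 0.12 at HOXD9, -0.09 to 0.07 at HOXD10 and -0.09 to 0.13 at HOXD11. The cause was not tested. DESeq2 gave fewer calls in each direction at an adjusted p below 0.05, and depth limits regions near 10 reads.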

Other observations

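Starts of non-coding RNAs lie between the HOX genes, and their regions were also read. HOTTIP, transcribed next to HOXA13, had 4 regions with log2 fold changes between -0.15 and 0.26 (lowest adjusted p = 0.433). HOTAIRM1, at the anterior end of HOXA, had 5 regions, of which the one that differed most had means of 84.9 in control and 110 in dm-αKG (log2 fold change 0.36, adjusted p = 0.123). HAGLR, in the anterior part of HOXD, had 5 regions with changes between -0.24 and 0.19 (lowest adjusted p = 0.335). At MIR10B, a microRNA just upstream of HOXD4, the means were 36.2 and 50.5 (0.49, adjusted p = 0.172), and at MIR196A1, near HOXB9, the more accessible of 2 regions had means of 61.9 and 84.2 (0.47, adjusted p = 0.0756). None of these passed the test. Among the non-coding RNAs, HOXB-AS1 was the one with starts at called regions, those described at HOXB2.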
